A study of Homo sapiens with 30 samples.

Results

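The 10 genes followed here control entry into the cell cycle, and they were measured in A549 cells treated with dexamethasone and with inhibitors of arginine methylation. They were the CDK inhibitor genes CDKN1C, CDKN1B, CDKN2C and CDKN2D, the D cyclin genes CCND1, CCND2 and CCND3, the kinase genes CDK4 and CDK6, and RB1. All 10 have a row among the 58780 genes of the deposited count table, and each was found by its symbol. The set was drawn up around CDKN1C, which stood out in an earlier look at these data in the comparison of MS023 for 7 days with untreated cells. That comparison is therefore given as a description with no test, and so is every value of CDKN1C that uses its untreated or MS023 7 days libraries.

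D cyclins bind CDK4 and CDK6, and the active kinases phosphorylate the retinoblastoma protein made by RB1, which then releases E2F transcription factors and lets cells pass from G1 into S phase. The INK4 proteins, among them p18 (CDKN2C) and p19 (CDKN2D), bind CDK4 and CDK6 and block their pairing with D cyclins. The CIP/KIP proteins, among them p27 (CDKN1B) and p57 (CDKN1C), bind cyclin and CDK complexes, most strongly those with CDK2. CDKN1C lies in an imprinted cluster at 11p15 and is a known glucocorticoid-responsive gene.

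The assay was PRO-seq, in which RNA polymerases engaged on DNA are run on with tagged nucleotides, so that the reads show transcription in progress and not the store of mature mRNA. A549 is an established human lung adenocarcinoma line. The 15 groups held 2 libraries each, 30 in all. Untreated cells, whose labels give a time of 15 min, were the sole control for all treatment times, the 2, 4 and 7 days of inhibitor included. Dexamethasone (Dex, a synthetic glucocorticoid, 100 nM) was given for 15 min or 3 h. GSK591 (a PRMT5 inhibitor, 1 µM) or MS023 (which blocks type I PRMT enzymes, 1 µM) was given alone for 2, 4 or 7 days, was given together with Dex for 3 h, or was given for 7 days and followed by Dex for 15 min or 3 h. All groups, the untreated cells included, carried 0.01% DMSO. The 2 libraries of a group are separate samples by their labels, but nothing says that they came from separate cultures, so the p-values measure only the spread between these samples, which may be technical.

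Total counts per library ran from 8441211 to 13069598, of which mitochondrial genes took 58.7% to 78.7%. The A549 markers KRT7, KRT8, KRT18, AKR1B10, AKR1C1, ALDH3A1 and GCLM were detected in all 30 libraries. The other A549 markers read, EPCAM and CDH1, were also detected in all 30, but at only 0.957 to 6.19 and 1.0 to 6.65 CPM (CPM is the count of a gene scaled to the size of its library). The leukocyte genes PTPRC, CD3E and LYZ never exceeded 5 counts and had none in 13, 21 and 22 libraries. The B cell gene CD79A had counts in all 30 libraries, at 1.0 to 5.18 CPM. So had the collagen genes COL1A1 (2.41 to 8.24 CPM) and COL3A1 (0.0978 to 1.91 CPM). PECAM1 had no counts in 1 library and HBB in 15. The group mean of COL1A1 was 3.25 CPM in untreated cells and 7.2 CPM after MS023 for 7 days. The summed level of 8 markers of other cell types (PTPRC, CD3E, CD79A, PECAM1, COL1A1, COL3A1, LYZ and HBB) ran from 5.67 to 5.84 CPM in untreated cells and from 10.6 to 11.8 CPM after MS023 for 7 days. Replicate 2 of MS023 given together with Dex stood apart from its partner (Pearson's r of log2 CPM 0.926, against 0.962 or more in every other group), with MKI67 at 209 CPM against 68.7 CPM. None of the 32 calls of members given below with a test uses this library. Leaving it out could reach them only through the spread, filter and scaling shared by all groups. It ended none of them and added 8, which says little about how far those calls depend on single libraries.

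CPM values are scaled by TMM, so each difference is relative to the typical gene of the library. Scaling by total counts instead moved the median log2 fold change of all genes from about 0 to 0.15 for Dex at 3 h, to 0.29, 0.42 and -0.03 for GSK591 at 2, 4 and 7 days, and to 0.68, 0.74 and 1.02 for MS023 at the same times. Total counts include the mitochondrial genes, whose share was 76% and 73.4% in untreated cells and 58.7% and 59.6% at 7 days of MS023. A smaller mitochondrial share raises nuclear genes under that scaling. A lower level cannot tell fewer transcribing cells from less transcription per cell.

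The members differed widely in level. Per kilobase of exon, CCND1 had the highest median of group means at 13.3 CPM per kb, and CDKN1B (7.33), CCND3 (7.24), CDKN2D (6.79) and CDK4 (6.04) followed. CDKN2C stood at 4.33, CDKN1C at 4.15, CDK6 at 1.39 and RB1 at 0.742 CPM per kb on the same scale. CCND2 was close to absent, with 0 to 10 counts per library and none in 10 of 30, and it did not pass the filter on low counts. The other 9 members passed and were tested among 22919 genes with the edgeR quasi-likelihood test, called at a Benjamini-Hochberg adjusted p below 0.05. Over the 15 groups, CDKN1C had the widest range of the 9, with a highest group mean 14.7 times its lowest. For the others this ratio lay between 1.58 (CDK4) and 3.73 (CDKN2C).

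CDKN1C (ENSG00000129757.13, chromosome 11, 2883213 to 2885773, minus strand, GENCODE 29 on GRCh38) is a short gene of 2561 bp, 96.8% of it exonic, whose exons overlap no other annotated gene. Its 2 untreated libraries stood at 3.11 and 0.907 CPM, from 28 and 9 counts. After Dex for 15 min the levels were 2.67 and 1.5 CPM, within the spread of untreated cells. After Dex for 3 h they were 14.4 and 19.9 CPM, both above every library of the former groups. The level was 8.63-fold higher (log2 fold change 3.11), and the log2 value was 4.22 without untreated replicate 1 and 2.45 without untreated replicate 2.

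The inhibitors alone also came with higher CDKN1C transcription. GSK591 gave 3.63 and 3.22 CPM at 2 days, 6.91 and 5.52 CPM at 4 days, and 8.14 and 8.84 CPM at 7 days. No GSK591 library overlapped an untreated one, but at 2 days the lower stood at 3.22 CPM against 3.11 CPM in untreated replicate 1. The log2 fold changes were 0.79, 1.66 and 2.10. MS023 gave 6.26 and 7.20 CPM at 2 days and 11.2 and 12.2 CPM at 4 days, with log2 fold changes of 1.77 and 2.57. At 7 days of MS023, the comparison by which the gene was picked, the libraries stood at 13.4 and 11.7 CPM and the log2 fold change was 2.67.

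These comparisons share the 2 untreated libraries, which also took part in the choice of the gene, so no test is attached to them. Without untreated replicate 2, the library with 9 counts, the log2 fold change of CDKN1C was 0.13, 1.00 and 1.44 at 2, 4 and 7 days of GSK591. It was 1.11 and 1.92 at 2 and 4 days of MS023. Without untreated replicate 1 the same values were 1.90, 2.76, 3.20, 2.88 and 3.68. The authors' deposited tables rest on another counting of the reads, and whether their fold changes were shrunk toward 0 is not stated. They list CDKN1C at -0.02 and 0.13 for 2 and 4 days of GSK591 and at 0.35 for 2 days of MS023. The same tables list it at 1.32 for 7 days of GSK591, 2.00 for 4 days of MS023 and 2.85 for Dex at 3 h.

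**Figure D1:**
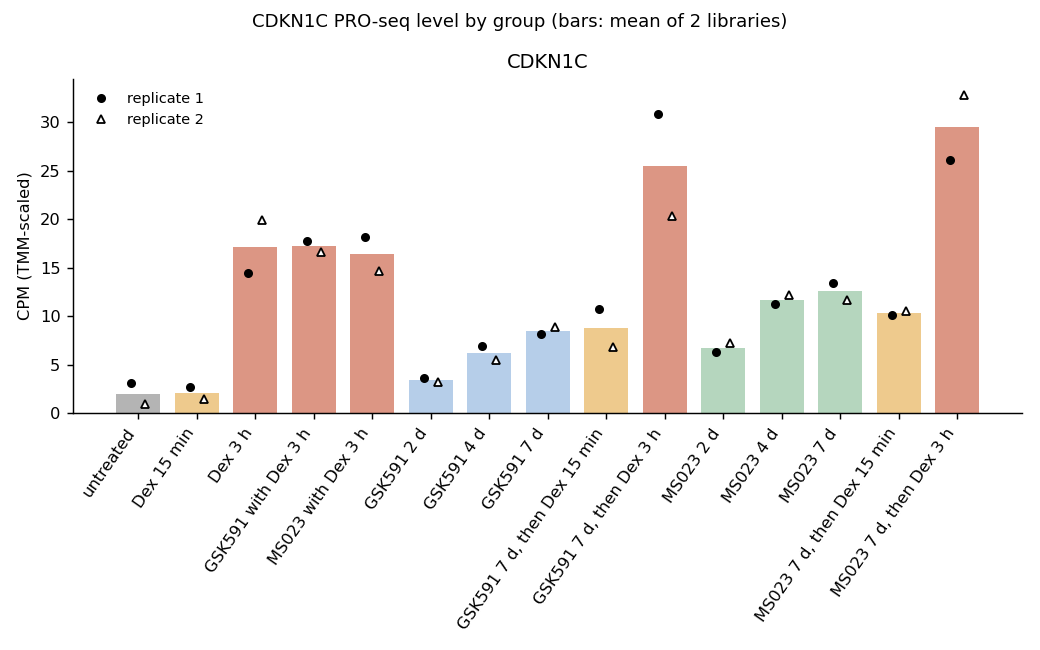
CDKN1C PRO-seq level in the 15 groups, in TMM-scaled CPM (vertical axis from 0). Bars are means of 2 libraries and the symbols are the libraries. The untreated libraries lie at 3.11 and 0.907 CPM, those of Dex for 3 h at 14.4 and 19.9 CPM, and the highest, MS023 for 7 days followed by Dex for 3 h, at 26.1 and 32.8 CPM.

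Cells that received an inhibitor for 7 days and then Dex can be set against cells with Dex alone, a comparison that uses neither the untreated libraries nor those of MS023 alone. After 15 min of Dex, CDKN1C stood at 10.1 and 10.5 CPM with prior MS023 and at 10.7 and 6.83 CPM with prior GSK591, against 2.67 and 1.5 CPM with Dex alone. The differences were 2.30 (SE 0.338, edgeR adjusted p = 5.4e-05) and 2.03 (SE 0.361, edgeR adjusted p = 0.000372) on the log2 scale, and the libraries did not overlap. After 3 h of Dex the levels were 26.1 and 32.8 CPM with prior MS023 and 30.8 and 20.3 CPM with prior GSK591, against 14.4 and 19.9 CPM with Dex alone. With prior MS023 the difference of 0.79 passed (SE 0.227, edgeR adjusted p = 0.0251), although not without Dex 3 h replicate 1 (0.57, edgeR adjusted p = 0.258) or MS023 then Dex 3 h replicate 2 (0.62, edgeR adjusted p = 0.212). With prior GSK591 it was 0.58 (SE 0.235, edgeR adjusted p = 0.108).

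In cells held in an inhibitor, CDKN1C stood higher again once Dex had been given for 3 h. Against 7 days of GSK591 alone the log2 fold change was 1.59 (SE 0.260, edgeR adjusted p = 0.000151). Against 7 days of MS023 alone it was 1.23, a 2.35-fold higher level, given without a test because the MS023 libraries took part in the choice of the gene. Dex for 15 min gave 0.01 after GSK591 and -0.29 after MS023. The Dex response at 3 h after GSK591 minus that in untreated cells was -1.52, and -2.63 or -0.86 without untreated replicate 1 or 2. For MS023 the same difference was -1.88. Both contain the untreated libraries and are given without a test. On the linear scale, which was not tested, the group means of CDKN1C went from 2.01 to 17.1 CPM in cells without an inhibitor, from 8.49 to 25.5 after GSK591 and from 12.6 to 29.5 after MS023. Given together with Dex for the same 3 h, GSK591 left CDKN1C at 17.7 and 16.6 CPM and MS023 at 18.2 and 14.6 CPM, log2 differences from Dex alone of 0.01 (95% interval -0.49 to 0.51) and -0.06 (95% interval -0.57 to 0.44).

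GSK591 and MS023 can be compared directly. CDKN1C was lower with GSK591 than with MS023 by 0.98 on the log2 scale at 2 days (log2 difference -0.98, SE 0.349, edgeR adjusted p = 0.164) and by 0.91 at 4 days (log2 difference -0.91, SE 0.271, edgeR adjusted p = 0.0468). The first did not pass, although it did under total counts (-1.36, edgeR adjusted p = 0.00904), without the filter on low counts and with the compared groups alone in the fit. The second passed, but not when any 1 of its 4 libraries was left out (edgeR adjusted p from 0.144 to 0.344). At 7 days the difference was -0.57, and -1.62 under total counts, without a test. With Dex afterwards it was -0.27 at 15 min (95% interval -0.83 to 0.30) and -0.21 at 3 h (95% interval -0.66 to 0.25). These 2 depended on the scaling. Under total counts they were -1.14 (edgeR adjusted p = 0.000645) and -1.0 (edgeR adjusted p = 0.000967), and the medians of all genes were -0.88 and -0.85.

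Ordered by group mean, CDKN1C was lowest in untreated cells (2.01 CPM) and with Dex for 15 min (2.08 CPM), whose libraries overlapped. GSK591 at 2 days (3.42) came next. GSK591 at 4 days (6.22) and MS023 at 2 days (6.73) followed and overlapped. GSK591 at 7 days (8.49), GSK591 then Dex 15 min (8.74) and MS023 then Dex 15 min (10.3) stood above them, but the libraries of GSK591 then Dex 15 min overlapped those of the groups on both sides, of MS023 at 2 days and of GSK591 at 4 days. MS023 at 4 days (11.7) and at 7 days (12.6) overlapped. The 3 groups with Dex for 3 h and no prior inhibitor stood at 16.4 to 17.2 CPM and overlapped, and the 2 with prior inhibitor at 25.5 and 29.5 CPM overlapped as well.

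The genes whose 15 group means followed CDKN1C most closely were PPARA (Pearson's r 0.918), ANPEP (0.916), PLXNA2 (0.915), PRKCD (0.913) and DCST2 (0.908), among 11116 genes whose mean reached 5 CPM. They describe 15 groups that share libraries and treatments, and no p is attached. PPARA, a nuclear receptor gene, stood at 6.78 and 5.74 CPM in untreated cells, 8.82 and 12.1 CPM after Dex for 3 h and 16.0 and 20.7 CPM with MS023 followed by Dex for 3 h. ANPEP, which encodes an aminopeptidase, had log2 fold changes of 2.98 with Dex at 3 h, 1.42 with GSK591 at 4 days and 1.47 with MS023 at 4 days. These are given without a test, because the gene was chosen by its likeness to CDKN1C in the same libraries.

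Of 14 genes of the imprinted 11p15 region that surround CDKN1C, 12 were tested. With Dex at 3 h, 2 rose and none fell, when 10.5% of all genes were called, and the median log2 fold change was 0.13. Those 2 were KCNQ1OT1, the long noncoding RNA gene of the cluster (0.96, SE 0.113, edgeR adjusted p = 5.29e-09), and SLC22A18AS (1.41, SE 0.298, edgeR adjusted p = 0.000615). KCNQ1OT1 went from 47.4 and 49.0 CPM in untreated cells to 104 and 83.3 CPM. With the inhibitors alone KCNQ1OT1 was not called at 4 days, at 44.6 and 39.7 CPM with GSK591 and 48.4 and 41.9 CPM with MS023. At 4 days, 3 of the 12 rose and none fell with either inhibitor (5 and 8 rose under total counts). Of all genes, 17.2% were called with GSK591 and 14.2% with MS023 at that time. No response of the region is read from these counts. KCNQ1 rose with both (2.06 with GSK591, edgeR adjusted p = 0.0119, and 2.42 with MS023, edgeR adjusted p = 0.00167).

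**Figure D2:**
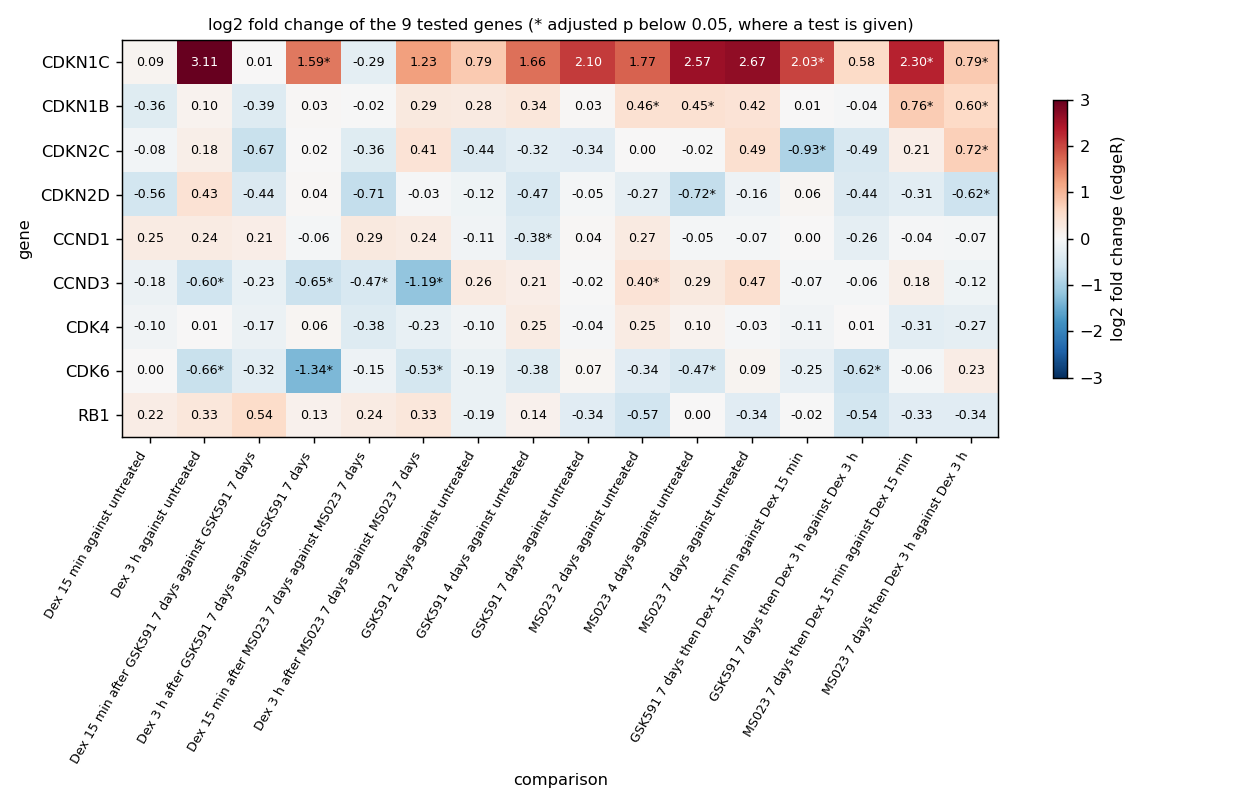
log2 fold changes of the 9 tested genes (rows) in 16 comparisons (columns) from the edgeR fit, with the colour scale from -3 to 3 and a star at an adjusted p below 0.05 where a test is given. CDKN1C has the highest values, up to 3.11 with Dex for 3 h, while CCND3 and CDK6 are negative in the 3 columns of Dex for 3 h. The MS023 7 days column, and CDKN1C wherever untreated or MS023 7 days libraries enter, carry no stars because CDKN1C was picked from them.

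Read over all members, Dex for 15 min called none of the 9 tested (3 at an unadjusted p below 0.05, none with DESeq2), against 1.26% of all genes. Dex for 3 h put 3 of 9 past the threshold, against 10.5% of all genes: CCND3 and CDK6 were called lower, and CDKN1C, higher, counts as a description. The median log2 fold change of the 9 was 0.18, against -0.01 for all genes.

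CCND3 and CDK6 form a D cyclin and partner kinase pair, and both are long genes of which only a small part is exonic. CCND3 (ENSG00000112576.12, chromosome 6, 41934933 to 42050357, minus strand) is 5.0% exonic and CDK6 (ENSG00000105810.9, chromosome 7, 92604921 to 92836594, minus strand) 5.3%. The sequence around their starts is shown because both genes fell with Dex. RefSeq (GRCh38.p14) lists 3 starts for CCND3 and 2 for CDK6, and each entry runs from 250 bases before the start to 50 after it on the gene's strand. Capitals mark exact matches, on either strand, to GGGGCGGGG (an SP box, 15.7% of 35116 promoter entries hold one) or GTAAACA (a FOXO-type site, 3.42%). The 3 entries printed are the 2 upstream starts of CCND3 and the upstream start of CDK6, in which no match was found.
CCND3, chr6:42048639-42048938, minus strand: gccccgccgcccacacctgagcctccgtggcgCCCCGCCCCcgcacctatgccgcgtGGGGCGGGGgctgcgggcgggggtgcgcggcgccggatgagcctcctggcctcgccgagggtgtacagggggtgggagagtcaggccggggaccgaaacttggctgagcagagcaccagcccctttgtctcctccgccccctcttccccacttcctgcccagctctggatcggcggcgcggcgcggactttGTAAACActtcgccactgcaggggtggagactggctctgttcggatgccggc
CCND3, chr6:41941759-41942058, minus strand: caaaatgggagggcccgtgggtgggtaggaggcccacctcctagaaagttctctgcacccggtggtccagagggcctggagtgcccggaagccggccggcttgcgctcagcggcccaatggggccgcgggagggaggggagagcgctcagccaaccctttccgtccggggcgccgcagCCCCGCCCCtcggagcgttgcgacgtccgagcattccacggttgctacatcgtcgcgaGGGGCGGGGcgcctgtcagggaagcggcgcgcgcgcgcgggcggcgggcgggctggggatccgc
CDK6, chr7:92836524-92836823, minus strand: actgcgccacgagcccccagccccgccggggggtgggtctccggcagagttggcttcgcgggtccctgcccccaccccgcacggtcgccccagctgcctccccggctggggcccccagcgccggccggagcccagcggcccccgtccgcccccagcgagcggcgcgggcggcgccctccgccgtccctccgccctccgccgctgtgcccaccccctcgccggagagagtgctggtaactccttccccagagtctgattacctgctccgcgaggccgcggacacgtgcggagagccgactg
The upstream CCND3 entry holds 2 SP matches, which begin 218 and 193 bases before the start. Its FOXO-type match begins 2 bases before the start and runs across it. The second entry holds 2 SP matches, which begin 72 and 14 bases before its start. The palindromic glucocorticoid response element was in none of the 12 entries of the 7 members listed (CDKN1B, CDKN2C, CDKN2D, CCND3, CDK4, CDK6 and RB1) and in 1 of all 35116. The single hexamer AGAACA of that element (14.8% of entries) was in 1 of the 12, an RB1 entry inside the gene. The E2F-type octamers TTTCCCGC (1.63%) and TTTGGCGC (0.652%) were in none of the 12.

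CCND3 stood at 39.5 and 45.4 CPM in untreated cells, 36.7 and 38.3 CPM after Dex for 15 min and 27.4 and 28.6 CPM after 3 h. Both 3 h libraries lay below all 4 of the others. The fall at 3 h was -0.60 on the log2 scale (SE 0.122, edgeR adjusted p = 0.000332). CDK6 stood at 20.1 and 23.0 CPM in untreated cells, 22.5 and 20.6 CPM after 15 min and 12.2 and 15.1 CPM after 3 h, a fall of -0.66 (SE 0.147, edgeR adjusted p = 0.00113). Scaling by total counts kept the sign of both and ended both calls (-0.44, edgeR adjusted p = 0.286, for CCND3 and -0.49, edgeR adjusted p = 0.267, for CDK6). The CDK6 call also ended without untreated replicate 2 (-0.56, edgeR adjusted p = 0.051) or Dex 3 h replicate 1 (-0.51, edgeR adjusted p = 0.079). The authors' deposited table lists -0.53 for CCND3 (adjusted p = 1.04e-05) and -1.19 for CDK6 (adjusted p = 2.33e-58).

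The same pair fell with Dex at 3 h in cells held in either inhibitor. After GSK591, CCND3 went from 42.9 and 41.1 to 27.5 and 26.3 CPM (-0.65, SE 0.124, edgeR adjusted p = 0.000151), and CDK6 from 20.1 and 25.2 to 8.27 and 9.51 CPM (-1.34, SE 0.157, edgeR adjusted p = 4.92e-09). After MS023, CCND3 went from 61.9 and 55.8 to 26.5 and 25.0 CPM (-1.19, SE 0.115, edgeR adjusted p = 1.89e-11), and CDK6 from 23.8 and 22.1 to 16.6 and 15.4 CPM (-0.53, SE 0.133, edgeR adjusted p = 0.00427). In the 5 groups that had Dex for 3 h, CCND3 ran from 23.5 to 32.9 CPM over 10 libraries. That holds for TMM scaling: under total counts CCND3 was higher with MS023 then Dex for 3 h than with Dex alone (0.72, edgeR adjusted p = 0.00495) and lower after GSK591 than after MS023 (-0.77, edgeR adjusted p = 0.00292), where TMM gave -0.12 and 0.06. Under total counts, the falls of CCND3 after GSK591 (-0.44, edgeR adjusted p = 0.273) and of CDK6 after MS023 (-0.54, edgeR adjusted p = 0.207) no longer passed.

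At 15 min after MS023, CCND3 was the sole member called, at 42.0 and 43.2 CPM against 61.9 and 55.8 CPM (-0.47, SE 0.112, edgeR adjusted p = 0.0119), and this call ended without MS023 7 days replicate 1 (-0.38, edgeR adjusted p = 0.277), without either library of the Dex group (edgeR adjusted p of 0.172 and 0.0877), or under total counts (-0.61, edgeR adjusted p = 0.335). Against the responses in untreated cells, the CCND3 response at 3 h after MS023 was lower by 0.59 (log2 difference -0.59, SE 0.168, edgeR adjusted p = 0.133) and the CDK6 response after GSK591 by 0.68 (log2 difference -0.68, SE 0.216, edgeR adjusted p = 0.205). Neither difference passed, although that of CCND3 did without the library that stood apart (edgeR adjusted p = 0.0433).

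Counted over the 9 tested members, Dex for 3 h called 3 of 9 after GSK591, against 9.85% of all genes, and put 3 of 9 past the threshold after MS023, against 11.1%. CCND3 and CDK6 were lower in both, and CDKN1C was higher, which after MS023 is a description. Dex for 15 min called none after GSK591, against 2.09% of all genes (3 of 9 at an unadjusted p below 0.05, none with DESeq2), and 1 after MS023, against 2.07%. The interactions of Dex with an inhibitor called none of the 9. At 3 h, 2 of 9 had an unadjusted p below 0.05 for each inhibitor, and DESeq2 called none for GSK591 and for MS023 1, CDKN1C, which is a description, against 0.223% of all genes with edgeR for each. At 15 min the numbers at an unadjusted p below 0.05 were 1 for GSK591 and 0 for MS023, DESeq2 called none, and edgeR called 0.00436% of all genes for each.

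CDK6 also separated the inhibitors after Dex. With 3 h of Dex it was lower after GSK591 than with Dex alone (8.27 and 9.51 against 12.2 and 15.1 CPM, log2 difference -0.62, SE 0.165, edgeR adjusted p = 0.00717). It was lower after GSK591 than after MS023 (16.6 and 15.4 CPM) by a log2 difference of -0.84 (SE 0.155, edgeR adjusted p = 0.000115), and the libraries did not overlap. The former call ended without Dex 3 h replicate 2 (-0.47, edgeR adjusted p = 0.162) or GSK591 then Dex 3 h replicate 1 (-0.52, edgeR adjusted p = 0.105), and under total counts (-0.63, edgeR adjusted p = 0.148).

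**Figure D3:**
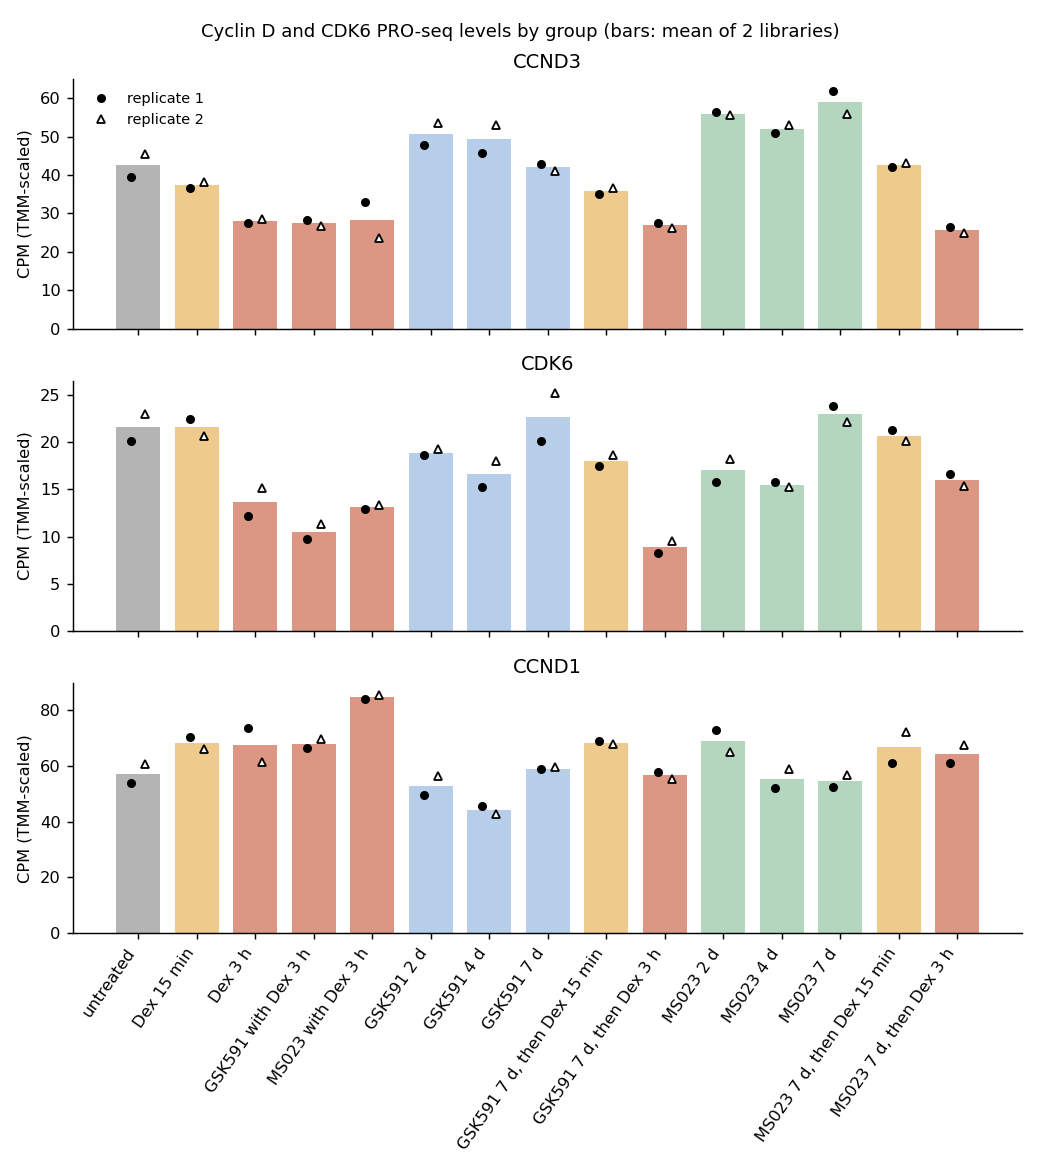
PRO-seq levels of CCND3, CDK6 and CCND1 in the 15 groups, in TMM-scaled CPM (vertical axes from 0), with bars for the mean of 2 libraries and symbols for the libraries. In the 5 groups with Dex for 3 h, CCND3 lies between 23.5 and 32.9 CPM, against 39.5 and 45.4 CPM in untreated cells. CDK6 is lowest, at 8.27 and 9.51 CPM, where GSK591 preceded Dex.

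Without Dex, CCND3 rose with MS023 at 2 days, to 56.4 and 55.5 CPM (0.40, SE 0.115, edgeR adjusted p = 0.0185), a call lost when untreated replicate 1 or either MS023 library was left out (edgeR adjusted p from 0.0894 to 0.272). It stood at 50.8 and 52.9 CPM at 4 days (0.29, edgeR adjusted p = 0.0855) and at 61.9 and 55.8 CPM at 7 days. At 7 days it was lower with GSK591 (42.9 and 41.1 CPM) than with MS023 (log2 difference -0.49, SE 0.115, edgeR adjusted p = 0.0033), a call lost without GSK591 7 days replicate 2 (-0.45, edgeR adjusted p = 0.064) or MS023 7 days replicate 1 (-0.40, edgeR adjusted p = 0.0934). CDK6 fell with MS023 at 4 days, to 15.8 and 15.3 CPM (-0.47, SE 0.137, edgeR adjusted p = 0.0142), which under total counts turned to 0.27 (edgeR adjusted p = 0.321) and did not pass with DESeq2 (-0.46, adjusted p = 0.0716), without the filter on low counts (-0.44, edgeR adjusted p = 0.0501), or without untreated replicate 2 or either MS023 library (edgeR adjusted p from 0.0671 to 0.204).

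The gene that followed CCND3 most closely over the 15 groups was BYSL (Pearson's r 0.976), which encodes a ribosome biogenesis factor and lies 1887 bases beyond the end of CCND3 on the opposite strand (chromosome 6, 41921188 to 41933046, plus strand). BYSL went from 14.1 and 16.1 CPM in untreated cells to 10.5 and 8.79 CPM after Dex for 3 h (log2 fold change -0.64, and -0.49 under total counts). It went from 22.5 and 23.4 CPM after MS023 to 10.7 and 8.71 CPM when Dex followed for 3 h (-1.24). No test is given, because BYSL was chosen by its likeness to CCND3 in these libraries. Use of strand in counting is not given in the sources used here. Whether reads from CCND3 entered the BYSL count was not tested. The next were MAFG (0.945), CYP24A1 (0.939), LITAF (0.935) and the long noncoding RNA gene AC005920.1 (0.930), all on other chromosomes. Between members, the group means of CCND3 and CDK6 went together (r = 0.66 over 15 groups), and those of CDKN1C ran opposite to CDK6 (r = -0.65) and CCND3 (r = -0.56). The groups share libraries, treatments and scaling, and these values are descriptions.

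CCND1 (ENSG00000110092.3, chromosome 11, 69641087 to 69654474, plus strand), the D cyclin gene with the highest level here, was called in 2 comparisons under TMM scaling, both with GSK591. It stood at 53.9 and 60.6 CPM in untreated cells and at 45.6 and 42.6 CPM after 4 days of GSK591 (-0.38, SE 0.112, edgeR adjusted p = 0.0139). Under total counts the sign of this fall turned (0.04, edgeR adjusted p = 0.921), and the call ended without untreated replicate 2 (-0.29, edgeR adjusted p = 0.207) or GSK591 4 days replicate 2 (-0.33, edgeR adjusted p = 0.148). At 2 days it was lower with GSK591 than with MS023, at 49.5 and 56.3 against 72.9 and 64.9 CPM (log2 difference -0.38, SE 0.111, edgeR adjusted p = 0.0481). That call ended with DESeq2 (adjusted p = 0.121), without the filter on low counts (edgeR adjusted p = 0.0748), without mitochondrial and ribosomal RNA genes (edgeR adjusted p = 0.0503), and without any 1 of its 4 libraries (edgeR adjusted p from 0.09 to 0.484). After 7 days of GSK591, CCND1 stood at 58.7 and 59.4 CPM, inside the untreated range. Total counts gave further calls with MS023. CCND1 was then higher at 2 and 4 days of MS023 (0.94 and 0.69, edgeR adjusted p of 0.000402 and 0.00572). It was also higher with MS023 then Dex for 3 h than with Dex alone (0.78, edgeR adjusted p = 0.00171). At 7 days it was lower with GSK591 than with MS023 (-0.93, edgeR adjusted p = 0.000139). The authors' deposited tables list CCND1 at -0.38, -0.67 and -0.15 for GSK591 at 2, 4 and 7 days (adjusted p of 0.000161, 6.75e-12 and 0.217).

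Among the other CDK inhibitor genes, CDKN1B (ENSG00000111276.10, chromosome 12, 12715058 to 12722371, plus strand) responded to MS023. It stood at 15.7 and 20.2 CPM in untreated cells, at 24.2 and 25.1 CPM after 2 days of MS023 (0.46, SE 0.137, edgeR adjusted p = 0.0227), at 23.7 and 25.5 CPM after 4 days (0.45, SE 0.134, edgeR adjusted p = 0.0164) and at 24.8 and 23.2 CPM after 7 days (0.42, no test given). Without untreated replicate 1 the values at 2 and 4 days were 0.29 and 0.29 (edgeR adjusted p of 0.379 and 0.355), and DESeq2 gave adjusted p of 0.0739 and 0.0512. The call at 2 days also ended without either MS023 library (edgeR adjusted p of 0.0962 and 0.14), and that at 4 days without MS023 4 days replicate 2 (edgeR adjusted p = 0.146).

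In the comparison that uses other libraries, CDKN1B was higher with MS023 followed by Dex than with Dex alone. At 15 min it stood at 22.9 and 24.4 CPM against 15.9 and 12.0 CPM (0.76, SE 0.139, edgeR adjusted p = 8.72e-05), and at 3 h at 28.4 and 30.3 CPM against 19.6 and 19.0 CPM (0.60, SE 0.133, edgeR adjusted p = 0.00139). The libraries did not overlap at either time, and both calls held under every alternative tried. With GSK591 in place of MS023, CDKN1B stood at 15.7 and 12.7 CPM at 15 min and at 18.4 and 19.3 CPM at 3 h, lower than with MS023 by log2 differences of -0.75 (SE 0.141, edgeR adjusted p = 0.000127) and -0.64 (SE 0.133, edgeR adjusted p = 0.000652). Without Dex, the difference between GSK591 and MS023 was -0.18, -0.12 and -0.38 at 2, 4 and 7 days. None of these passed under TMM scaling (edgeR adjusted p of 0.633, 0.723 and 0.0667). Under total counts they were -0.56, -0.44 and -1.43, and the difference at 7 days passed (edgeR adjusted p of 0.107, 0.211 and 2.43e-07).

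CDKN2C (ENSG00000123080.10, chromosome 1, 50960745 to 50974633, plus strand) moved apart between the inhibitors. At 7 days it stood at 11.0 and 11.8 CPM with GSK591 and at 18.6 and 21.7 CPM with MS023, around the untreated mean of 14.4 CPM (SD 1.61, n = 2). The difference between the inhibitors was -0.82 (SE 0.174, edgeR adjusted p = 0.000887). It was -1.14 when Dex followed for 15 min (SE 0.190, edgeR adjusted p = 1.8e-05) and -1.21 when Dex followed for 3 h (SE 0.168, edgeR adjusted p = 6.56e-07), with no overlap of libraries in any of the 3. Against Dex alone, CDKN2C was lower with prior GSK591 at 15 min (7.79 and 6.64 against 14.0 and 13.2 CPM, log2 difference -0.93, SE 0.196, edgeR adjusted p = 0.00058). It was higher with prior MS023 at 3 h (22.4 and 31.4 against 16.6 and 16.0 CPM, log2 difference 0.72, SE 0.161, edgeR adjusted p = 0.00163), a call that ended without the library at 31.4 CPM (0.46, edgeR adjusted p = 0.143).

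CDKN2D (ENSG00000129355.6, chromosome 19, 10566462 to 10569059, minus strand) was called lower with MS023 at 4 days, at 7.03 and 6.76 against 9.68 and 13.0 CPM (-0.72, SE 0.211, edgeR adjusted p = 0.0155), and with MS023 followed by Dex for 3 h against Dex alone, at 8.86 and 11.1 against 14.4 and 16.4 CPM (-0.62, SE 0.198, edgeR adjusted p = 0.0329). Under total counts both signs turned, to 0.02 (edgeR adjusted p = 0.964) and 0.22 (edgeR adjusted p = 0.47). DESeq2 called neither (adjusted p of 0.0669 and 0.135). The first call ended without untreated replicate 2 or either MS023 library (edgeR adjusted p from 0.0736 to 0.29), and the second without either Dex library or MS023 then Dex 3 h replicate 1 (edgeR adjusted p from 0.0702 to 0.281).

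**Figure D4:**
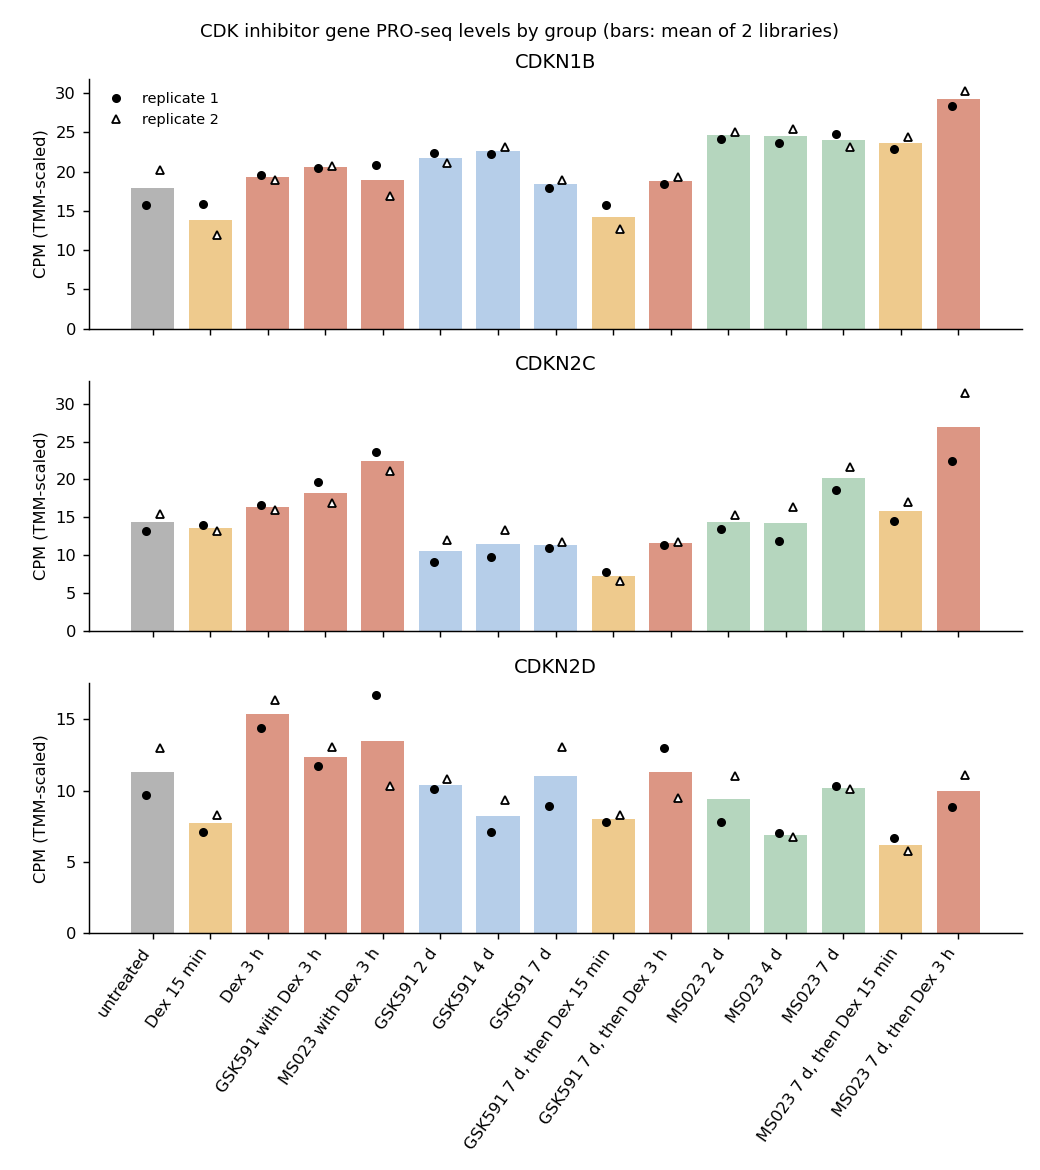
PRO-seq levels of CDKN1B, CDKN2C and CDKN2D in the 15 groups, in TMM-scaled CPM (vertical axes from 0), with bars for the mean of 2 libraries and symbols for the libraries. CDKN1B and CDKN2C are highest with MS023 for 7 days followed by Dex for 3 h (28.4 and 30.3 CPM, and 22.4 and 31.4 CPM). CDKN2D is highest with Dex for 3 h alone by group mean (14.4 and 16.4 CPM).

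CDK4 (ENSG00000135446.16, chromosome 12, 57747727 to 57756013, minus strand) and RB1 (ENSG00000139687.15, chromosome 13, 48303726 to 48599436, plus strand) were called in none of the 27 comparisons under TMM scaling. Under total counts CDK4 was called higher at 4 days of GSK591 (0.67, edgeR adjusted p = 0.0295) and at 2 and 4 days of MS023 (0.93 and 0.85, edgeR adjusted p of 0.00121 and 0.00203), among 8 calls outside MS023 at 7 days. Both were then lower with GSK591 than with MS023 at 7 days (-1.05 each, edgeR adjusted p of 9.3e-05 for CDK4 and 0.00869 for RB1). CDK4 ran from 13.7 to 26.1 CPM over all 30 libraries, with 19.4 and 19.6 CPM in untreated cells. Its exons overlap those of TSPAN31, on the opposite strand, over 1369 bp, and whether strand was used in counting is not given in the sources used here, so reads of the 2 genes may be shared. TSPAN31 itself fell with GSK591 at 4 days (-0.55, SE 0.123, edgeR adjusted p = 0.00097) and with MS023 at 4 days (-0.86, SE 0.122, edgeR adjusted p = 8.72e-07), but not under total counts (-0.13 and -0.11). The authors' deposited tables differ here, with CDK4 at -0.99 for 4 days of GSK591 (adjusted p = 2.49e-05) and at -0.70 for 4 days of MS023 (adjusted p = 0.00137), where the counts gave 0.25 (SE 0.144, edgeR adjusted p = 0.247) and 0.10. RB1 is 2.2% exonic and rested on 27 to 96 counts per library. Its levels were 4.34 and 5.24 CPM in untreated cells and 3.91 and 2.58 CPM after 2 days of MS023, a log2 fold change of -0.57 (95% interval -1.16 to 0.02, edgeR adjusted p = 0.23).

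Counts over the members are given beside the shares of all genes, and no dependence on the inhibitor or its duration was tested. GSK591 called none of 9 at 2 days (2 at an unadjusted p below 0.05, none with DESeq2), against 5.64% of all genes, 2 of 9 at 4 days, against 17.2%, and 1 of 9 at 7 days, against 13.2%. MS023 called 3 of 9 at 2 days, all higher, against 10.4% of all genes (6.18% higher), and 4 of 9 at 4 days, 2 higher and 2 lower, against 14.2% (7.8% higher and 6.37% lower). At 7 days of MS023, 4 of 9 lay past the threshold, against 13.6% of all genes, a count that describes the comparison from which the set was drawn. CDKN1C is 1 of those past the threshold at 4 and 7 days of GSK591 and at 2 and 4 days of MS023, where it is a description. Of the 8 others, 1 was called at 4 days of GSK591, 2 at 2 days of MS023 and 3 at 4 days of MS023. Prior GSK591 called 2 of 9 against Dex alone at 15 min, against 15.3% of all genes, and 1 of 9 at 3 h, against 13.6%. Prior MS023 called 2 of 9 at 15 min, against 15.3%, and 4 of 9 at 3 h, against 11.5%. GSK591 against MS023 called 1 of 9 at 2 days, against 2.69%, 1 at 4 days, against 6.03%, 2 at 7 days, against 9.38%, 2 with Dex for 15 min afterwards, against 15.6%, and 3 with Dex for 3 h afterwards, against 11.1%. With 9 genes, 1 call is a large share.

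Given together with Dex for 3 h and set against Dex alone, the inhibitors called none of the 9. For GSK591, edgeR called no gene at all (0%), 1 of the 9 had an unadjusted p below 0.05 and DESeq2 called none. For MS023, edgeR called 0.196% of all genes, 2 of the 9 had an unadjusted p below 0.05 and DESeq2 called none. With MS023, CDKN2C differed by 0.46 (23.6 and 21.1 against 16.6 and 16.0 CPM, edgeR adjusted p = 0.196) and CCND1 by 0.33 (84.0 and 85.3 against 73.5 and 61.5 CPM, edgeR adjusted p = 0.154). RB1 differed by 0.15, and its libraries of 3.94 and 9.39 CPM lay on both sides of those with Dex alone.

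The other genes of the pathway were read from lists. CDKN1A, which encodes the CIP/KIP protein p21, was the sole tested gene of the 3 other G1 inhibitor genes, since CDKN2A and CDKN2B had at most 3 counts in any library and none in 20 and 24 libraries (A549 cells are known for a deletion of that locus). CDKN1A stood at 10.3 and 11.1 CPM in untreated cells, 31.5 and 30.6 CPM after Dex for 3 h, 32.9 and 24.0 CPM after 7 days of GSK591 and 11.3 and 14.0 CPM after 4 days of MS023. It rose with Dex at 3 h (1.53, SE 0.151, edgeR adjusted p = 3.62e-11) and with GSK591 at 7 days (1.41, SE 0.153, edgeR adjusted p = 1.38e-09), and at 4 days it was higher with GSK591 than with MS023 (log2 difference 0.93, SE 0.142, edgeR adjusted p = 6.69e-06, and 0.60, edgeR adjusted p = 0.105, under total counts).

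Downstream of the members, E2F and later cyclin genes were read at 7 days of GSK591, when 13.2% of all genes were called. Of 12 RB family and E2F genes (RBL1, RBL2, E2F1 to E2F8, TFDP1 and TFDP2), 1 rose and 7 fell at 7 days of GSK591, with a median of -0.77 against 0 for all genes. E2F1 went from 13.2 and 17.4 CPM in untreated cells to 5.93 and 4.29 CPM (-1.58, SE 0.209, edgeR adjusted p = 1.9e-07). At 2 days of GSK591, when 5.64% of all genes were called, 1 of these 12 fell and none rose. Of 9 later cyclin, CDK and CDC25 genes, 7 fell and none rose at 7 days (median -0.99), and 1 fell and none rose at 2 days. CDK1, the mitotic kinase gene, went at 7 days from 7.67 and 5.24 to 1.05 and 1.74 CPM (-2.22, SE 0.342, edgeR adjusted p = 4.17e-06). Total counts gave 6 and 5 falls for the 2 lists at this time and no rise.

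At 4 days of MS023, when 14.2% of all genes were called, 1 of the 12 and 2 of the 9 fell and none rose, with medians of -0.17 and -0.35. Total counts turned both medians (0.56 and 0.39) and gave 6 and 2 rises with no fall. Dex at 3 h called 1 of the 12, lower, and none of the 9 (medians -0.09 and 0.16), against 10.5% of all genes. The proliferation markers MKI67, TOP2A, PCNA, MCM2 and MCM5 moved with these groups. Their summed level ran from 188 to 198 CPM in untreated cells, 157 to 160 CPM with Dex for 3 h, 62.8 to 73.4 and 55.2 to 55.9 CPM at 4 and 7 days of GSK591, and 132 to 134 and 98.9 to 104 CPM at 4 and 7 days of MS023. Their part in the values of CDKN1C and of the other members was not tested.

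Of 10 genes for turnover of the inhibitors or activation of CDKs, 1 rose and 1 fell at 7 days of GSK591 (median -0.07), against 13.2% of all genes called. CDK7, the CDK-activating kinase gene, stood at 12.4 and 12.2 CPM against 5.67 and 8.46 CPM (0.79, SE 0.201, edgeR adjusted p = 0.00454, and 0.76, edgeR adjusted p = 0.082, under total counts). CKS1B, whose product helps SKP2 to mark p27 for destruction, stood at 4.53 and 4.96 CPM against 10.9 and 10.8 CPM (-1.19, SE 0.212, edgeR adjusted p = 5.25e-05). At 4 days of MS023 none of the 10 was called (median 0.10, and 0.83 with 8 rises under total counts), against 14.2% of all genes.

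Of 10 transcription factor genes known to act on promoters of the members, 5 rose and 2 fell with Dex at 3 h (median 0.38, and 4 and 1 under total counts), against 10.5% of all genes called. CEBPB went from 35.0 and 32.1 to 112 and 124 CPM (1.81, SE 0.128, edgeR adjusted p = 2.01e-15), FOXO3 rose by 0.92 (SE 0.130, edgeR adjusted p = 4.46e-07) and SMAD3 fell by 1.23 (log2 fold change -1.23, SE 0.114, edgeR adjusted p = 5.53e-12). At 4 days, 1 rose and 3 fell with GSK591, against 6 and 2 with MS023, when 17.2% and 14.2% of all genes were called. CEBPB was among those that rose in both, to 58.7 and 63.5 CPM and to 65.7 and 74.8 CPM. Total counts left no fall in either and gave 6 and 8 rises.

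**Figure D5:**
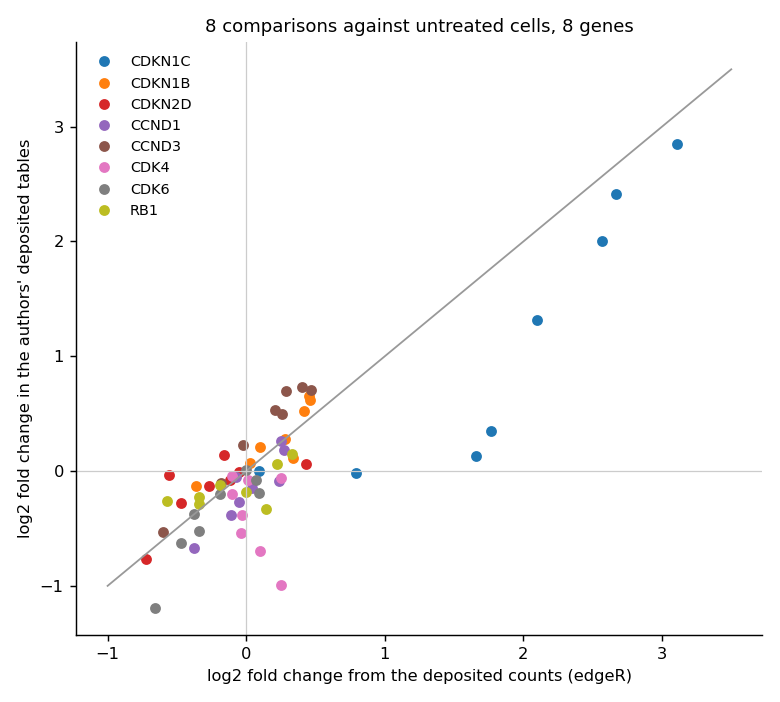
log2 fold changes from the deposited counts (horizontal axis) against those in the authors' deposited tables (vertical axis) for 8 members in 8 comparisons with untreated cells, 1 point per gene and comparison, with the line of equal values. CDKN1C lies below the line in all 8 comparisons, by an amount that is greatest at 4 days of GSK591 (1.66 against 0.13), and CDK4 lies at -0.99 on the vertical axis where the counts gave 0.25. Whether the authors' values were shrunk toward 0 is not stated.

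The authors' deposited tables hold 14 comparisons with untreated cells and list 9 of the 10 members. Their mean signal per gene is higher than the mean count for the long, intron-rich genes CDK6 (6.04 times) and RB1 (5.76 times). It is lower for CDKN1C (35.5 against 128), CDKN2D (26.9 against 103), CDK4 (98.3 against 200) and CDKN1B (180 against 223). The ratio did not follow the exonic share in every gene, with 1.44 for CCND3 (5.0% exonic) and 2.03 for CCND1 (36.1% exonic). Over 7 comparisons and 8 members, 10 of 56 values were called from both sources, 3 from the counts alone and 13 in the authors' tables alone, and none of the 10 differed in sign. These counts include CDKN1C, whose values against untreated cells are descriptions. Whether the authors' fold changes were shrunk toward 0 is not stated. Their SE for CDKN1C was 0.128 for Dex at 15 min and 0.546 for Dex at 3 h, so the sizes may not be on the scale of the edgeR values. For groups with both agents, the authors' deposited tables list CDKN1C against untreated cells at 3.06 for GSK591 followed by Dex for 3 h and at 3.68 for MS023 followed by Dex for 3 h, without a test here. There CDK4 is listed at -0.74 and -0.72 (adjusted p of 0.000952 and 0.000711), CDKN1B at 0.29 and 0.78 (adjusted p of 0.134 and 3.07e-06) and CCND3 at -0.45 and -0.51 (adjusted p of 0.000161 and 7.6e-06).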

How the data were processed

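PRO-seq libraries of A549 cells were read from the gene counts that the authors deposited, as raw whole numbers per gene. The submitters' processing notes name featureCounts 2.0.1 (Subread) and hg38; feature type and use of strand are not given in the sources used here. All 58780 identifiers matched GENCODE 29. The authors also deposited comparison tables with, per the file headers, a mean signal (baseMean), log2 fold changes with SE, and p-values.

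Counts were tested with edgeR 4.0.16 (R 4.3.3, limma 3.58.1, quasi-likelihood, TMM, robust), with all 15 groups in 1 fit of 15 residual degrees of freedom. Of all genes, 22919 passed filterByExpr with a count of 10 and a total of 15 as its minimums, and over these p-values were adjusted by Benjamini-Hochberg (threshold 0.05) in each of 27 comparisons. The script was tested on simulated data. With 2 libraries a group, a permutation test of 1 gene cannot go below 0.333. Promoter entries are from RefSeq.

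Groups came from the sample labels. The members, lists and comparisons were chosen with earlier results of these data known. The genes named besides members are the 5 most correlated with CDKN1C and with CCND3 over group means, and called genes of the lists. Alternatives were DESeq2 size factors, total counts, no filter, DESeq2 1.42.0, the compared groups alone, a replicate block, no mitochondrial or ribosomal RNA genes, and leaving out each library; 1 more, without the library that stood apart, was chosen after seeing the data.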

Additional observations from a re-analysis of the deposited data

How the results depend on the processing

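Outside the values that took part in choosing the set (MS023 at 7 days, and CDKN1C with untreated or MS023 7 days libraries), 32 member results were called. All 32 kept their direction and call with DESeq2 size factors, with the compared groups alone and with a replicate block. They also did without the library that stood apart, but none of the 32 uses that library. With DESeq2 6 were lost, without the filter 2, and without mitochondrial and ribosomal RNA genes 1. Leaving out 1 library lost the call in 41 of 128 cases, with the direction kept; a group then has 1 sample, assumed to vary like the others. Total counts reversed 4 calls, namely CCND1 at 4 days of GSK591 (0.04), CDKN2D and CDK6 at 4 days of MS023 (0.02 and 0.27) and CDKN2D with MS023 then Dex 3 h against Dex (0.22), and lost 6 more. The cause was not tested.

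The counts that follow include CDKN1C where its values are descriptions. The number of members called with Dex alone was 3, and 1 under total counts. With GSK591 alone it was 3, against 5 under total counts and 6 with the compared groups alone. With MS023 at 2 and 4 days it was 7, against 12 under total counts, 3 with DESeq2 and 4 to 5 when 1 library was left out (4 without untreated replicate 1, untreated replicate 2 or MS023 4 days replicate 2). The median log2 fold change of the members at 7 days of MS023 was 0.09, and 1.11 under total counts. Dex after an inhibitor called 7, and 4 under total counts. GSK591 against MS023 called 9, and 31 under total counts. The interactions called 0, against 2 without the filter, 1 with DESeq2, 2 without the library that stood apart and 0 to 2 when 1 library was left out (2 without untreated replicate 1, 1 without Dex 3 h replicate 1 or GSK591 then Dex 3 h replicate 1). All of these were CDKN1C, except that CCND3 was 1 of the 2 without the library that stood apart.

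The replicate numbers showed no pairing common to all groups, since replicate deviations correlated between groups with a median r of 0.02 over 105 pairs of groups (-0.46 to 0.50, 22 above 0.1). Whether some groups shared a batch was not tested, and the median cannot show it. With the replicate block the interactions called 1 member (CDKN1C), GSK591 alone 4, Dex after an inhibitor 9 and an inhibitor before Dex 10 in place of 9. Counts were lowest for CDKN1C in untreated cells, with Dex for 15 min and at 2 days of GSK591 (9 to 28), and for RB1 (27 to 96).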
